A study of Mus musculus with 2 samples.

Results

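Matrix metalloproteinases (MMPs), ADAMs, ADAMTS proteases, ADAMTS-like proteins and the tissue inhibitors of metalloproteinases (TIMPs) were followed in RNA of the whole E14.5 mouse embryo, wild type. A probe set belonged to this group when the array annotation paired it with 1 gene symbol and that symbol was an Mmp, Adam, Adamts, Adamtsl or Timp gene with its number. This gave 124 of the 45101 probe sets of the array, for 70 of the 18194 genes that had a probe set of 1 symbol. They comprised 18 MMP, 28 ADAM, 15 ADAMTS, 5 ADAMTSL and 4 TIMP genes. Total RNA, isolated with RNAzol, was biotin-labelled and hybridised to 2 Affymetrix Mouse Genome 430 2.0 arrays. Both arrays are duplicates of 1 condition, so that no comparison between groups and no test was possible. No treatment, transgene or mutation is given for the embryos, and of the NMRI and C57/BL6 strains named for embryos of this stage, the one used for the arrays is not stated. Nor is it stated if each array had an embryo of its own or both had 1 RNA, so their spread may be technical only.

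MMPs are zinc endopeptidases, secreted or anchored in the membrane, that cut collagens, elastin and other matrix proteins after removal of an inhibitory propeptide. ADAMs are transmembrane proteins, many of which shed the extracellular domains of growth factors, receptors and adhesion molecules, whereas others have lost the protease active site and act in adhesion. ADAMTS proteases are secreted, bear thrombospondin repeats and process procollagens and the large proteoglycans, and their ADAMTSL relatives lack a protease domain. TIMPs bind and block these enzymes, and in the embryo the balance serves the turnover of cartilage, the invasion of vessels, the shaping of organs and Notch signalling.

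The values are signals on a linear scale, with a trimmed mean of 100 on each array. Background was read from 81 probe sets for receptors of odours, pheromones (vomeronasal) and bitter taste, whose 95th percentile, the bound, lay at 27.9 on array 1 and at 33.8 on array 2. A gene was called above background if a probe set of it exceeded each array's bound, not necessarily the same one on both. Markers of the tissues of the embryo exceeded it in full for liver, skeletal muscle, cartilage, neurons, fibroblasts, endothelium, macrophages and neutrophils (4 or 5 measured genes each). Markers of spermatids (4 genes) and epididymis (3 genes) did not exceed it on both arrays in any case. Signals of different probe sets are not on a common scale, and each was set only against the bound. In RNA of a whole embryo fewer expressing cells and less RNA per cell cannot be told apart.

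Above background on both arrays were 38 of the 70 genes (54.3%), against 65.5% of all named genes. Another 3 genes exceeded the bound on array 1 only, none on array 2 only, and 29 on neither. The subfamilies were divided unequally. ADAMTS genes (12 of 15), ADAMTSL genes (4 of 5) and TIMP genes (3 of 4) were mostly above background, whereas of the ADAM genes 11 of 28 and of the MMP genes 8 of 18 were. By probe set, 57 of 124 lay above the bound on both arrays, against 55.6% of all probe sets of 1 symbol.

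The number of probe sets per gene moved with these counts. Of the 38 members with 1 probe set 11 passed, against 48.6% of all genes with 1 probe set, and of the 32 members with more probe sets 27 passed, against 82.8%. A gene represented once has fewer chances to exceed the bound, and 17 of 28 ADAM genes and 11 of 18 MMP genes were of this kind. The part of probe set number in the counts was not tested.

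**Figure D1:**
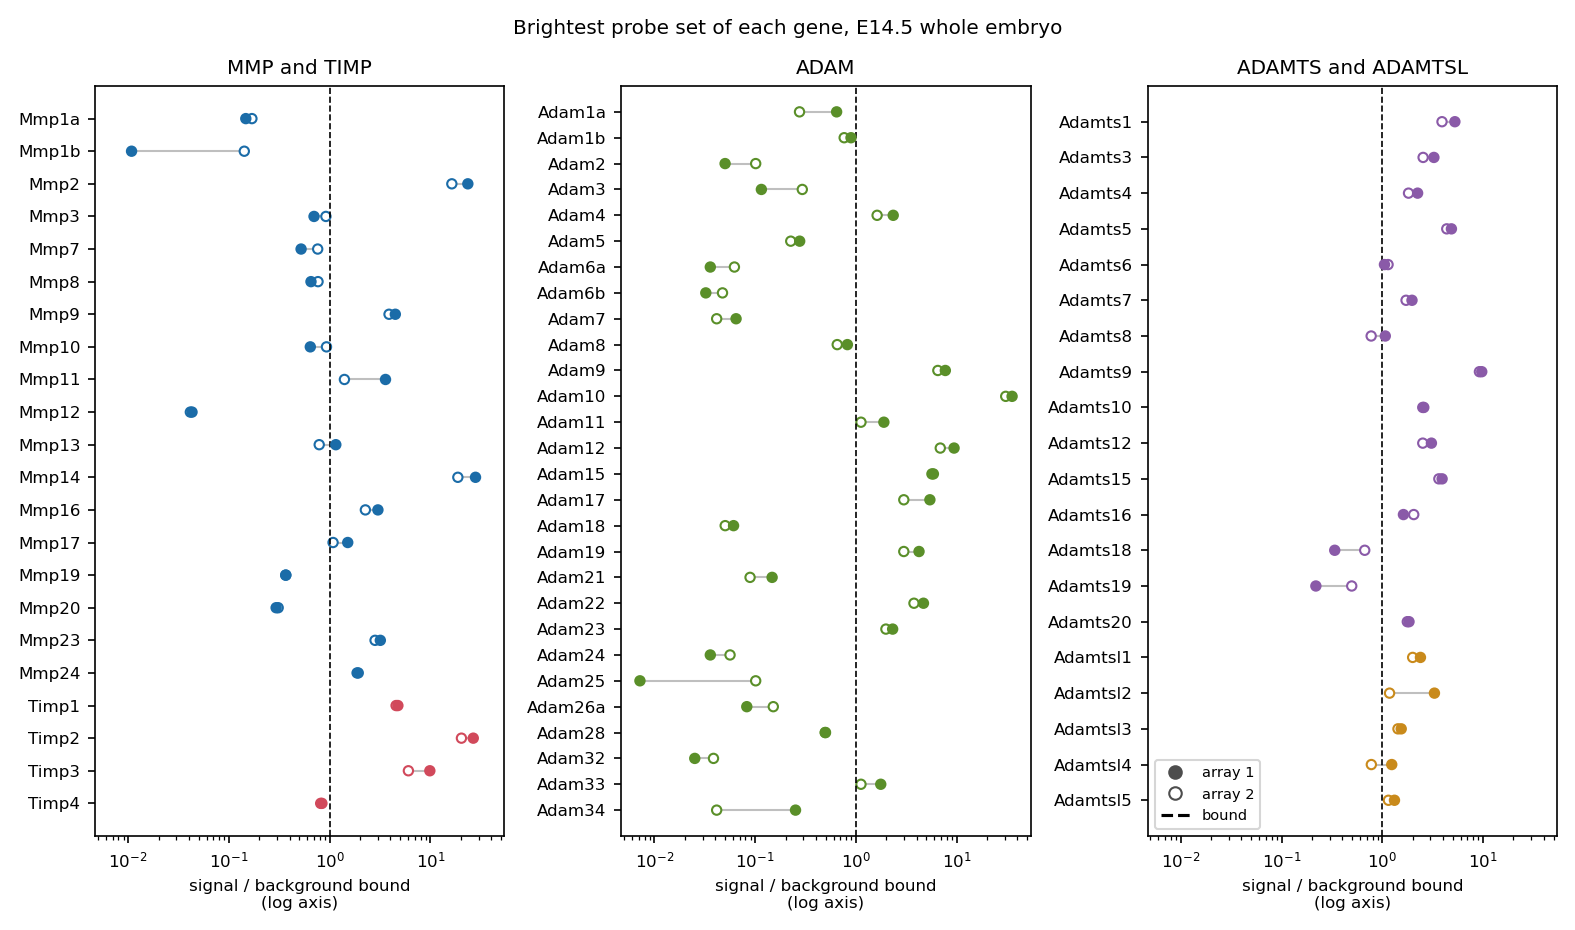
Signal of the brightest probe set of each of the 70 genes, divided by the background bound of the same array (log axis), on array 1 (filled) and array 2 (open); the dashed line is the bound. All ADAMTSL genes and most ADAMTS genes lie near or to the right of the line, and the ADAM genes spread from far left of it, over genes close to it on either side such as Adam1b, Adam8 and Adam33, to Adam10 far to its right.

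The MMP genes separated by their place in the genome. In the RefSeq gene order of GRCm38.p6, 9 of the 18 MMP genes follow one another on chromosome 9 as Mmp13, Mmp12, Mmp1b, Mmp3, Mmp1a, Mmp10, Mmp8, Mmp20 and Mmp7, with at most 3 other protein-coding genes between neighbours. None of these 9 genes was above background on both arrays, and 8 of the 9 MMP genes located elsewhere were. Each gene of the chromosome 9 run had 1 probe set, for which the share over all genes was 48.6%. Of the 9 genes elsewhere 7 had more probe sets, for which it was 82.8%, so that 8 of 9 (88.9%) was near the share of all such genes.

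The promoters of this run are shown because they share letters that few other promoters hold. Windows of 250 bases before and 50 bases after the annotated start were taken from RefSeq (GRCm38.p6), in which 41 of the 70 members had an entry. They were searched on both strands for TGANTCA, the core of the AP-1 site bound by Fos and Jun proteins, which reads the same on both strands. They were also searched on both strands for TATAAA, the letters of the TATA box, at any position in the window. In the run no match of one motif overlapped a match of the other. TGANTCA occurred in 8 of the 9 genes of the run, against 3 of the other 32 members and 1078 of the 14369 named genes with a window (7.50%). TATAAA occurred in all 9, against 4 of the other 32 members and 11.5% of named genes. Both motifs together occurred in 8 of 9, in none of the other 32 members, and in 216 of the 14369 named genes. Of the MMP genes elsewhere only 4 (Mmp11, Mmp14, Mmp23 and Mmp24) had a window, and these held neither motif. The promoters of Mmp2, Mmp9, Mmp16, Mmp17 and Mmp19 were not searched. The genes of the run are related copies, and their promoters are not independent of each other.

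Below are the last 120 bases before the start, on the gene's strand, of 5 genes of the run, with TGANTCA and TATAAA in capitals. In Mmp1a (chr9:7464021-7464140, plus strand), Mmp10 (chr9:7502222-7502341, plus strand) and Mmp7 (chr9:7691970-7692089, plus strand) the TATAAA after the AP-1 core began 26 to 29 bases before the start. Mmp13 (chr9:7272394-7272513, plus strand) is the gene of the run that exceeded the bound on array 1, and Mmp8 (chr9:7558309-7558428, plus strand) is the gene without an AP-1 core.
Mmp1a: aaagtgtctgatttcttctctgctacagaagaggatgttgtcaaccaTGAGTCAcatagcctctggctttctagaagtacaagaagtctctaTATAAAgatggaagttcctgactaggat
Mmp10: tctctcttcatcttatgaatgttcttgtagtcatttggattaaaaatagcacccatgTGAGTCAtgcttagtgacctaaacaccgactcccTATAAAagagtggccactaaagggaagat
Mmp7: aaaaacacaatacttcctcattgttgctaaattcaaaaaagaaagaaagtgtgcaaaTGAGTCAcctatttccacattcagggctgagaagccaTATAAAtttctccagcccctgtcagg
Mmp13: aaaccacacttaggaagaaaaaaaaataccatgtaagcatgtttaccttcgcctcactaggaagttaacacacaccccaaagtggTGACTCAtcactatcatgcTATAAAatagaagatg
Mmp8: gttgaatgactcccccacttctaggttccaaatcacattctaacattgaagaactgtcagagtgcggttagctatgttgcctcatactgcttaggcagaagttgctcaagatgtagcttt

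In all 8 genes with both motifs a TATAAA followed the AP-1 core on the gene's strand, with 19 (Mmp13) to 48 (Mmp12) bases between their first letters. The AP-1 core began between 95 bases (Mmp20) and 35 bases (Mmp13) before the start. The TATAAA after it began anywhere from 58 bases before the start (Mmp20) to base 5 of the transcript (Mmp12), so its distance from the start was not shared. In Mmp8 the letters of TATAAA stood on the other strand only, 3 bases before the start. Of the 216 named genes with both motifs in the window, 41.7% were above background on both arrays, against 0 of the 8 members. These 8 members are genes of the run, already counted above, so this is not a separate result. For TGANTCA, with or without TATAAA, the share of named genes above background was 54.0%, with 1 of 11 members, and for TATAAA, with or without TGANTCA, it was 53.2%, with 2 of 13 members. The same 8 genes of the run are in both of these member counts. Outside the run 1 of 3 members with TGANTCA and 2 of 4 members with TATAAA were above background. A match is a description of the letters and does not show that a factor is bound.

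**Figure D2:**
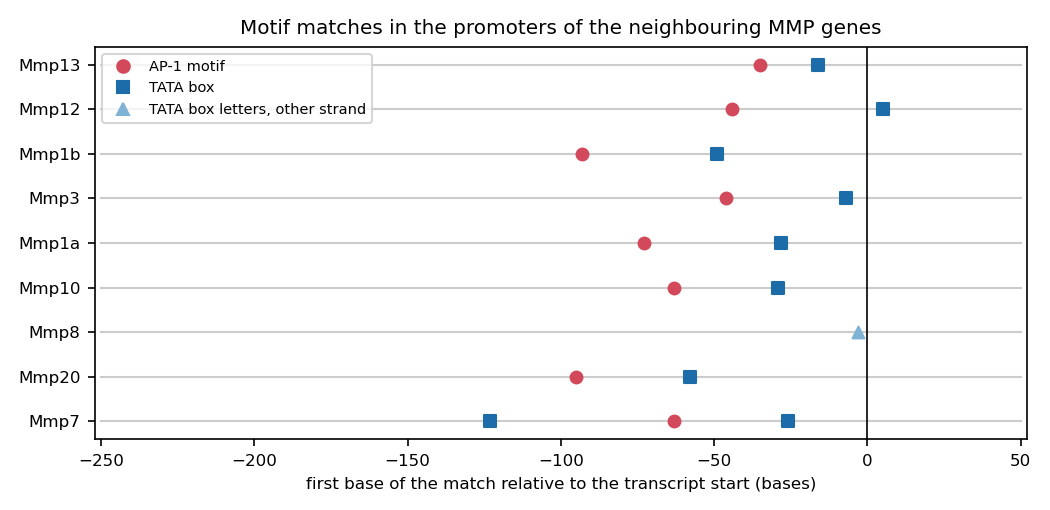
Position of the first base of each match to the AP-1 core (circles) and the TATA box (squares, and triangle for the other strand) relative to the annotated transcript start, in bases, for the 9 neighbouring MMP genes in their order on chromosome 9. For Mmp12 and Mmp7, which have 2 annotated starts, positions are relative to the start of the window that holds the match. In 8 genes a TATAAA match lies downstream of the AP-1 core, at differing distances from the start and in Mmp12 after it.

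Among the genes of the run, Mmp13, the collagenase of hypertrophic cartilage and bone, had signals of 32.2 on array 1 and 26.6 on array 2, the first above its bound and the second below. Markers of hypertrophic cartilage were above background on both arrays, with Col10a1 at 65.7 and 53.2 and Ihh at 40.1 and 53.8. Mmp8, the collagenase stored in neutrophil granules, was below the bound at 18.2 and 25.9. All 5 measured genes of neutrophils and their precursors exceeded it, among them Mpo at 879.1 and 952.8 and Ltf, a protein of later granules, at 103.5 and 119.1. Mmp20, the enamel protease of ameloblasts, had 8.2 and 10.4. Of 4 enamel organ genes Amelx was above background, just over the bound on array 1 and at 52.6 on array 2. These Amelx signals came from a probe set that may cross-hybridise (identifier ending in _x_at). Ambn, Enam and Klk4 were below the bound on both arrays. Mmp12, the elastase of macrophages, had 1.2 and 1.4, and all 5 macrophage genes were above background, Csf1r at 1047.7 and 1043.5. Markers of the cells known to make Mmp8 and Mmp12 were thus above the bound and these proteases below it.

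The other genes of the run were below the bound on both arrays as well. The stromelysin genes Mmp3 and Mmp10 lay close to it on array 2, at 31.0 and 31.4, and had 19.5 and 17.9 on array 1. Mmp7, matrilysin of secretory epithelia, was below the bound on array 1 and had 25.7 on array 2. The collagenase genes Mmp1a (4.1 and 5.7) and Mmp1b (0.3 and 4.8) are related copies, whose probe sets may detect each other's transcripts.

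Of the MMP genes elsewhere, the gelatinase genes and the membrane-type genes were above background. Mmp2, gelatinase A of mesenchyme, had signals of 654.3 and 552.4 with the brighter of its 2 probe sets, and 630.1 and 549.4 with the other. Mmp14, the membrane-type protease that activates pro-MMP2, had 780.3 and 631.6, then 195.0 and 117.7, and its dimmest probe set lay at 41.5 and 31.3, below the bound on array 2. Mmp9, gelatinase B of osteoclasts and leukocytes, had 124.9 and 131.0, and with its second probe set 50.2 and 32.1, below the bound on array 2. The osteoclast genes Acp5 and Ctsk were above background, whereas Calcr, Tnfrsf11a and Oscar lay between 9.7 and 26.2, below it. All 4 measured membrane-type MMP genes passed, but they were not equally far from the bound. All of them but Mmp17 had 2 or more probe sets, for which 82.8% of all genes passed.

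Mmp16, a transmembrane type, exceeded the bound in 2 of 4 probe sets, the brighter at 83.9 and 76.5. Mmp24, known from neurons, had 53.5 and 63.2, a second probe set at 22.2 and 39.8 that passed on array 2 only, and a last at 1.5 and 2.0. Mmp17, which is held by a lipid anchor, had 42.0 and 36.6 with its only probe set. Mmp23, cut free of the membrane by proprotein convertases, had 88.8 and 95.4, and 41.1 and 56.7 with its second probe set. Mmp11, which is activated inside the cell by furin, had 99.9 on array 1 and 47.4 on array 2, a 2.11-fold difference. The exception among the MMP genes elsewhere was Mmp19, with signals between 7.0 and 12.4 in both probe sets.

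The inhibitors were above background for Timp1, Timp2 and Timp3, but not Timp4. Timp2, which blocks MMPs and also docks pro-MMP2 on MMP14, exceeded the bound in 5 of its 6 probe sets. The brightest of these had 742.4 and 686.6 and the dimmest 58.1 and 48.6, and the remaining one lay at 9.7 and 1.7. Timp3, the inhibitor that stays bound to the matrix and also blocks ADAM17 and ADAMTS proteases, passed in 2 of 4 probe sets, at 275.2 and 204.3 and at 202.8 and 146.7. Its remaining probe sets had 28.6 and 17.2, above the bound on array 1 only, and 25.0 and 30.8. Timp1, which is encoded on the X chromosome, had 132.4 and 154.2. Timp4, best known from heart and brain, had 22.7 and 28.3, and 27.5 and 22.7, below the bound in both probe sets. The TIMP genes thus differed in how many of their probe sets passed, from all to none.

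The ADAM genes fell into those known from testis or epididymis and the others. Of 16 genes of the first kind 1 was above background, and of the 12 others 10 were. Of the first kind 15 had 1 probe set, for which 48.6% of all genes passed. Of the others 10 had more probe sets, for which 82.8% of all genes passed, and their own share of 83.3% was near it. In the absence of protein sequences the protease active site was assigned from what is known of each gene. With the active site 7 of 16 genes passed and without it 4 of 12. Of the 16 genes 8 had 1 probe set, and of the 12 genes 9 had 1. Outside the testis and epididymis genes 7 of 9 with the active site and 3 of 3 without it passed. Of these 9 genes 2 had 1 probe set, and of the 3 genes 0. The shares of all genes, 48.6% with 1 probe set and 82.8% with more, apply here too. The part of the active site in the counts was not tested.

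Adam10, the main sheddase of Notch receptors and cadherins, had signals of 987.9 and 1035.9 with 1 probe set and 51.8 and 49.9 with another, while the 2 remaining ones were below the bound, the brighter on array 2 at 14.8. Adam17, the sheddase of TNF and of EGF receptor ligands, had 150.8 and 100.8 with the brightest of 3 probe sets, 75.0 and 69.0 with the next and 23.7 and 25.9 with the last. Adam9 had 214.7 and 219.4 with its only probe set. Adam15, known from endothelium, passed in 3 of 4 probe sets, the brightest at 158.1 and 198.1 and the lowest at 11.3 and 21.7. Genes of the widely expressed sheddases were thus above background throughout, although not with every probe set.

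The meltrin genes were above background, too. Adam12 (meltrin alpha), named for myotube formation, had 262.2 and 231.8, and 87.3 and 67.2 with its second probe set. Adam19 (meltrin beta), which is required for heart valve and septum formation in the mouse, had 117.8 and 100.6, while its second probe set had 21.9 and 38.5 and passed on array 2 only. Adam33, of mesenchyme, had 49.2 and 37.9, and 22.8 and 27.1 with its second probe set. Of the genes not grouped here with testis or epididymis, Adam8, of leukocytes, and Adam28, known from lymphocytes, were below the bound. Adam8 had 22.9 on array 1 and less on array 2, and Adam28 had 13.9 and 16.7 with the brighter of 2 probe sets.

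Adam11, Adam22 and Adam23 lack the active site and serve as neuronal receptors of LGI proteins at the synapse. Each of them was above background with 1 probe set and below it with the others. Adam22 had 130.4 and 127.0 against 8.0 and 19.6 with its second probe set. Adam23 had 64.4 and 66.9, and its other probe sets had 24.8 and 18.3, and 1.0 and 1.4. Adam11 had 52.8 and 38.0, with 18.4 and 21.5 in the second.

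The genes of sperm surface proteins and their relatives were at low signals. The 15 genes below the bound (Adam1a, Adam1b, Adam2, Adam3, Adam5, Adam6a, Adam6b, Adam7, Adam18, Adam21, Adam24, Adam25, Adam26a, Adam32 and Adam34) ranged from 0.2 to 24.9 on array 1 and from 1.3 to 25.8 on array 2. Several of them are close copies (Adam1a and Adam1b, Adam6a and Adam6b, Adam24, Adam25, Adam26a and Adam34), and their probe sets may cross-hybridise. Adam4 was the exception, with 65.2 and 54.8 in its only probe set. Adam21, its neighbour on chromosome 12 and also a testis gene, had 4.1 and 3.0. On chromosome 8, Adam18, Adam3, Adam5, Adam32 and Adam9 follow one another, and only Adam9 was above background, the others lying at 9.9 or lower on both arrays.

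The secreted ADAMTS proteases were above background in 12 of 15 cases. Of the genes for versican- or aggrecan-cleaving enzymes, Adamts8 was above the bound on array 1 only, at 29.9 and 26.2, and the following passed on both arrays: Adamts1 had 146.4 and 132.1, Adamts4 had 62.4 and 61.5, Adamts5 had 135.3 and 147.5, Adamts9 had 270.7 and 311.1, Adamts15 had 109.3 and 123.2 and Adamts20 had 51.2 and 59.8. Adamts20 is the gene mutated in belted mice, which lack pigment in the trunk, and Adamts9 is its closest relative. Of the substrates, Vcan (353.2 and 236.4), Acan (397.0 and 346.5), Ncan (172.1 and 185.5) and Bcan (248.7 and 227.1) were above background as well. Adamts4 also passed with its second probe set at 41.1 and 58.1.

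Not every probe set of these enzymes passed. Adamts5 exceeded the bound in 3 of 4 probe sets (also 112.5 and 91.2, and 40.2 and 38.1), and the last had 0.6 and 0.5. Adamts9 passed in 2 of 3 (also 47.1 and 69.7), and the last had 30.3 and 31.2, above the bound on array 1 only.

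Of the ADAMTS genes with other substrates, Adamts3, a procollagen N-proteinase, had 90.8 and 85.9 and a second probe set at 10.6 and 17.7. Adamts7 (55.1 and 58.1) and Adamts12 (85.7 and 85.3) cleave the cartilage protein COMP, and Adamts12 had a second probe set at 6.1 and 5.9. Adamts10, a fibrillin-binding protease, had 72.0 and 85.3, and 20.4 and 23.5 with its second probe set. Its relative Adamts6 was close to the bound at 29.3 and 38.5, with 2.6 and 1.6 in its second probe set.

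Adamts16, known from kidney and gonads, had 45.3 and 69.3 with 1 probe set and 47.4 and 31.9 with the other, which passed on array 1 only. Adamts8 and Adamts15 are neighbours on chromosome 9, and only Adamts15 passed on both arrays. Adamts1 and Adamts5, neighbours on chromosome 16, both passed. Adamts18 and Adamts19 stayed under the bound on both arrays, between 3.0 and 22.6.

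The ADAMTSL genes, which encode matrix proteins without protease activity, were above background for Adamtsl1 (66.8 and 67.6), Adamtsl2 (91.8 and 39.9), Adamtsl3 (43.0 and 48.2) and Adamtsl5 (36.7 and 38.8). Adamtsl4, mutated in human lens dislocation, was above the bound on array 1 only, at 34.5 and 26.3. Adamtsl1 passed in 2 of 3 probe sets (also 42.8 and 41.8), with the last at 13.0 and 19.9, and the second probe set of Adamtsl5 had 8.6 and 10.4. On at least 1 array 3 of the 4 genes that passed were less than 2-fold over the bound. For all members above background this was so in 15 of 38 (39.5%), and for all named genes above background in 20.9%.

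Probe sets of 1 gene disagreed often. Of the 32 members with 2 or more probe sets, 18 (56.2%) had at least 1 above the bound on both arrays and at least 1 below it on both, against 46.7% of all such genes. They included Mmp16, Mmp24, Timp2, Timp3, Adam10 and Adamts5. For these genes a count by gene rests on the brighter probe sets, and a member with 1 probe set has no such check.

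**Figure D3:**
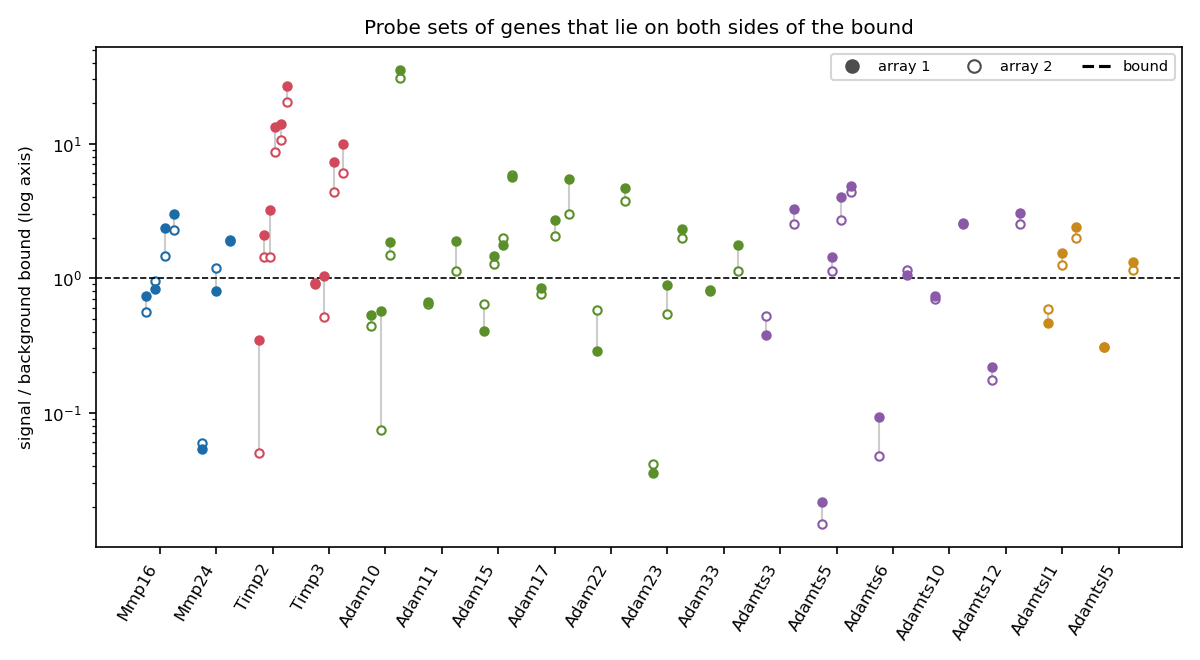
Signal divided by the background bound (log axis) for every probe set of the 18 genes with probe sets on both sides of the bound, on array 1 (filled) and array 2 (open), joined by a line. Timp2 spans from 0.348 to 26.6 times the bound on array 1 and Adamts5 has 3 probe sets above the dashed line and 1 far below it.

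Promoter composition was set beside the calls. The ratio of observed to expected CpG dinucleotides was computed over each window, taking the highest window of a gene with several starts, and a ratio over 0.6 was counted as CpG-rich. Of the 21 members above background that had a window, 13 (61.9%) were CpG-rich, and of the 20 others 2 (10.0%). The medians were 0.72 and 0.10. Among all named genes with a window, 75.6% of those above background and 28.4% of those not above it were CpG-rich, with medians of 0.79 and 0.35. Without the chromosome 9 run the members not above background numbered 11, of which 2 were CpG-rich, again with a median of 0.10. Most of these were ADAM genes of testis or epididymis, several of them close copies, so their promoters are not independent of each other either. Read by promoter, 13 of 15 CpG-rich members were above background, against 84.3% of all named genes with such a promoter, and 8 of 26 members with other promoters, against 40.7%.

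The TIMP genes show both kinds. Below are the 250 bases before the start of Timp2 (chr11:118355412-118355661, minus strand), which was above background and CpG-rich with a ratio of 0.72, and of Timp4 (chr6:115252206-115252455, minus strand), which was below the bound with a ratio of 0.10. CpG dinucleotides are in capitals and number 21 in Timp2 and 2 in Timp4.
Timp2: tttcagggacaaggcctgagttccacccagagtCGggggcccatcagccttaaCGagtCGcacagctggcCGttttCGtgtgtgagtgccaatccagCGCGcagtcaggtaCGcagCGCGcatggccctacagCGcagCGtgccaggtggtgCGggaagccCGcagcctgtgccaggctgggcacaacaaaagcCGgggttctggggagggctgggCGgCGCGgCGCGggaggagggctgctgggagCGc
Timp4: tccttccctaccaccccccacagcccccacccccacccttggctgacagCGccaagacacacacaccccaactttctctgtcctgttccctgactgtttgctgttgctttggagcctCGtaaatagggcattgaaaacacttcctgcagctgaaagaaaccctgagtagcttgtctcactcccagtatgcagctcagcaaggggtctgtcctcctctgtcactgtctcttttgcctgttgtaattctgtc

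Timp3, above background, had a ratio of 0.71, and Timp1, also above background, had 0.38. Other members above background without a CpG-rich promoter were Mmp14 (0.43), Mmp11 (0.57), Adam19 (0.41), Adam22 (0.58), Adamts1 (0.58), Adamts12 (0.25) and Adamtsl2 (0.27). The CpG-rich members that did not pass were Adamts18 (0.71) and Adamtsl4 (0.72), of which Adamtsl4 exceeded the bound on array 1.

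**Figure D4:**
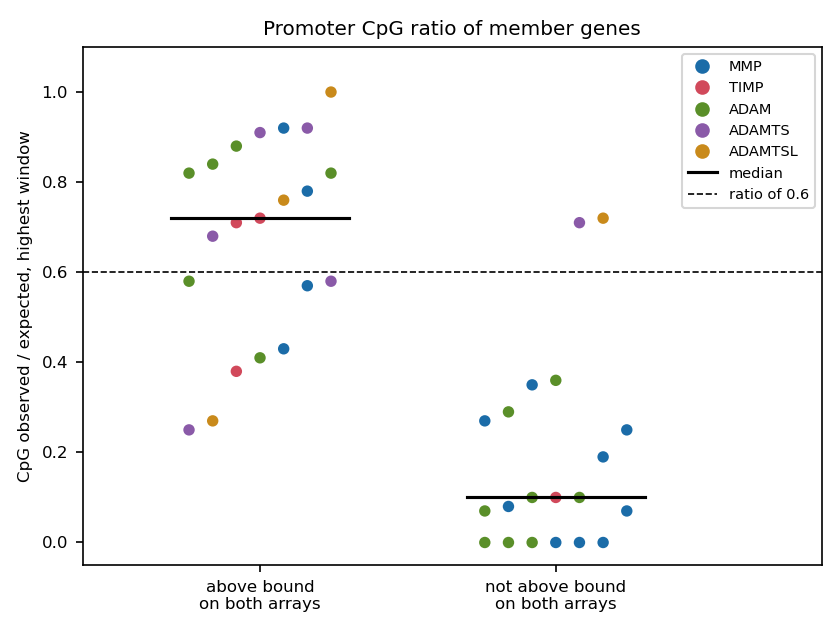
Ratio of observed to expected CpG in the promoter (highest window of each gene) for the 21 members above the bound on both arrays and the 20 members that were not, coloured by subfamily, with the median of each (bars) and the ratio of 0.6 (dashed). The medians are 0.72 and 0.10, and 2 members that did not pass lie above the dashed line.

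The duplicate arrays gave similar signals for most members. Differences are log2 signals of array 2 minus array 1, centred on the median of all 22138 probe sets above the bound on both arrays. The 57 member probe sets above the bound had a median difference of -0.06 with an SD of 0.37, against a median of 0.00 and an SD of 0.26 over all such probe sets, and 51 of 57 (89.5%) lay within 1.5-fold, against 96.3%. By subfamily the medians were -0.21 for MMP (12 probe sets), -0.30 for TIMP (8), -0.10 for ADAM (16), 0.14 for ADAMTS (16) and 0.01 for ADAMTSL (5). Of the TIMP probe sets 7 of 8 were lower on array 2, the exception being that of Timp1. The 8 came from 3 genes, with 5 for Timp2, 2 for Timp3 and 1 for Timp1. Probe sets of 1 gene are not independent readings, here and in the other subfamilies.

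Beyond 2-fold were 2 of the 57, both lower on array 2: Adamtsl2 at -1.21 and Mmp11 at -1.09. Among all probe sets 0.289% were beyond 2-fold in either direction and 0.0994% lower on array 2. Both genes have 1 probe set, so the difference has no second reading, and 1 array against 1 array allows no test. Both were also close to the bound on array 2, Adamtsl2 at 1.18 times and Mmp11 at 1.40 times its value. The next largest in size was a Timp2 probe set at -0.89 (89.3 and 48.6), whose 4 companions above the bound lay between -0.34 and -0.11. Mmp14 was lower on array 2 with both of its probe sets above the bound, at -0.74 and -0.31, as was Mmp2, at -0.25 and -0.21.

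**Figure D5:**
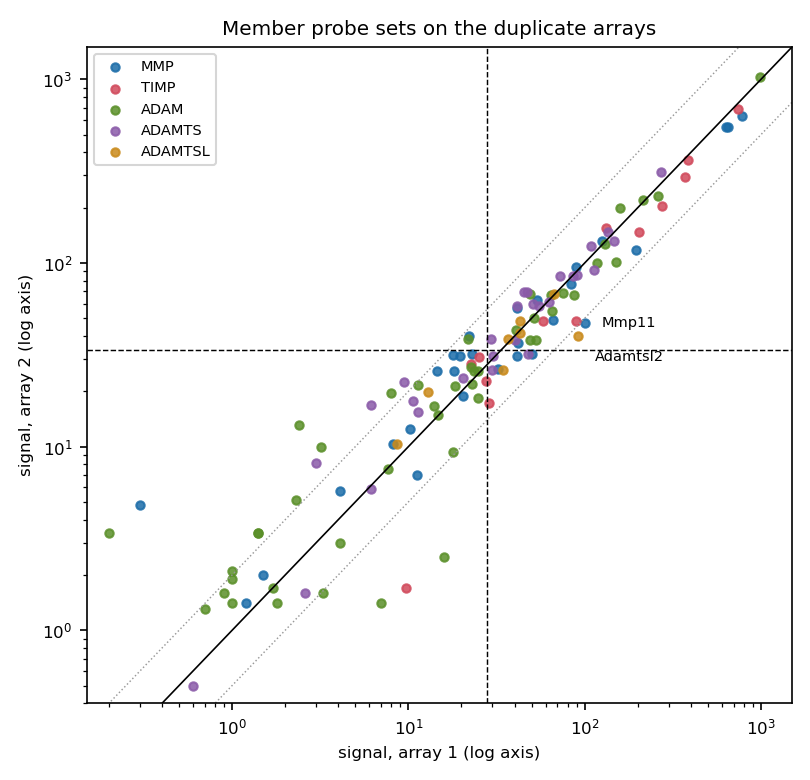
Signal of the 124 member probe sets on array 1 and array 2 (both log axes), coloured by subfamily, with the bounds (dashed), the line of equal signal (solid) and 2-fold lines (dotted). The 2 probe sets above both bounds and beyond 2-fold, of Adamtsl2 and Mmp11, lie below the lower dotted line.

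Genes that act with these proteases were read from lists of activators, regulators, related proteases and substrates, each to be set against the 65.5% of all named genes that were above background. Of 8 genes of proprotein convertases and the plasminogen system, which activate MMP and ADAM precursors, 7 were above background, including Furin (120.7 and 144.7), Plg (153.6 and 79.5) and Plat (133.8 and 149.4). Plau, urokinase, was the exception at 17.1 and 20.9, while its receptor gene Plaur passed at 42.6 and 41.2.

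Of 15 measured inhibitors and cofactors 12 passed, against 65.5% of all named genes. Reck, a membrane-anchored MMP inhibitor, had 385.3 and 324.9. Of the iRhom genes, whose products carry ADAM17 to the cell surface, Rhbdf1 had 382.2 and 404.0 and Rhbdf2 lay below the bound at 7.2 and 6.0. Of the tetraspanins that escort ADAM10, Tspan5, Tspan14, Tspan15, Tspan17 and Tspan33 were above background and Tspan10 was below it at 24.5 on both arrays. The remaining exception was Papln, an ADAMTS-related matrix protein, at 1.6 and 1.3.

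Of 6 astacins, another family of zinc proteases, Bmp1, the procollagen C-proteinase, passed at 204.7 and 159.9 and Mep1a, meprin alpha, at 41.7 and 45.0. Tll1, Tll2 and Mep1b were below the bound on both arrays, and Astl exceeded it on array 2 only, at 26.1 and 37.7.

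All 12 matrix substrates were above background, from fibrillar collagens to fibronectin. Of 15 measured cell surface proteins known to be shed, 10 passed, a share near the 65.5% of all named genes, among them Notch1 (349.2 and 341.2), App (1500.3 and 1316.6) and Cdh1 (696.6 and 641.1). Tnf, the namesake substrate of ADAM17, had 3.7 and 4.0. The other exceptions were the EGF family genes Ereg, Egf and Nrg1 and the receptor gene Erbb4. None of them exceeded the bound, and their signals lay between 0.4 and 28.0. Each exception, Tnf included, had 1 probe set, for which 48.6% of all genes passed. Of the shed proteins that passed, only Cdh1 had 1 probe set. A transcript that this probe set does not detect would be missed. The EGF family genes Hbegf (57.1 and 53.5), Tgfa (59.1 and 89.4) and Btc (35.9 and 44.9) passed.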

How the data were processed

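Signal intensity values, 1 per probe set and array, were deposited by the authors, who made them with GCOS 1.3 (named in the submitters' processing notes). They are linear, with a mean of 100 per array after trimming 2% at each end. Detection calls were not used here. Symbols came from the platform annotation and were updated through gene identifiers in RefSeq GRCm38.p6; none of the members was renamed. Of 45101 probe sets, 10143 with several symbols or none named no gene. Precision is limited by there being 2 arrays.

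The members, lists and groups were chosen with earlier results of these data known. Values are given for every TIMP, every member above background, members above the bound on 1 array only, genes split by the bound and probe sets beyond 2-fold, and for exceptions of a list. ADAM groups were to be read from protein sequences; known annotation was used instead. Genes formed a run when at most 3 other protein-coding genes lay between neighbours. Promoter windows, their motifs and their CpG threshold were chosen after seeing the data. The alternatives took the 90th or 99th percentile or the array median as bound, asked the same probe set to pass on both arrays, or dropped identifiers ending in _s_at or _x_at; others were each array alone, no centring, quantile normalization, loess (span 0.3) and no filter with a pseudocount of 16. Steps were tested on simulated data, with less spread between arrays than here and changes placed only in brighter probe sets. Calls near the bound were not covered by that test. Scripts ran in Python 3.11.15 with matplotlib 3.10.9 and statsmodels 0.14.6, besides scipy 1.17.1, numpy 2.4.6 and pandas 2.3.3.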

Additional observations from a re-analysis of the deposited data

How the results depend on the processing

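The number of members above background was 38 with the 90th percentile bound, 37 at the array median, 32 with the 99th percentile bound, 38 when 1 probe set had to pass on both arrays, 38 once probe sets that may cross-hybridise were dropped, and 38 to 41 with either array alone. For all named genes the shares in the same order were 68.8%, 64.0%, 61.9%, 65.5%, 64.3%, and 66.8% to 69.0%. The members lost at the 99th percentile were Adam11, Adam33, Adamts6, Adamtsl2, Adamtsl5 and Mmp17, which left 2 ADAMTSL genes in place of 4. The array median lost Adamts6. Array 1 alone added Mmp13, Adamts8 and Adamtsl4, so that 1 gene of the chromosome 9 run passed; under the other settings none did. MMP genes elsewhere gave 7 or 8 of 9 throughout. Probe sets beyond 2-fold between the arrays numbered 1 (Mmp11) with the 99th percentile bound, under which Adamtsl2 was not above the bound on array 2, and 0 of 124 without a filter and with a pseudocount of 16. With a CpG ratio over 0.75, an alternative chosen after seeing the data, 10 of 21 members above background were CpG-rich and 0 of 20 others. Of 125 values under the alternatives, 120 stayed within 1.5 times the count or within the spread between arrays. This is a lenient measure, because the sets counted overlap. The median differences ran from -0.10 to 0.00, against a spread (SD) of 0.37, and so could hardly fail it. No paired analysis was possible because both arrays belong to 1 group. Signals near the bound limit the calls: 15 of the 38 members passed by less than 2-fold on 1 array or both.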
